A study of Drosophila melanogaster with 2 samples.

Results

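Peaks of a tagged homeodomain protein that lay between 2 genes transcribed away from each other were examined in Drosophila melanogaster embryos. The protein is encoded by lms (lateral muscles scarcer, CG13424), which is known for its role in a few lateral muscles of the larva. It was mapped by ChIP-seq in a transgenic line that stably carried lms with GFP at its C-terminal end, and an antibody against GFP was used for the precipitation. Both biological replicates were whole embryos of pooled sex, and the source name puts their collection at 6 to 18 hours, which the age label of the samples contradicts. They form 1 group, so no conditions were compared, and the samples hold every tissue of the embryo. A member was any peak whose summit had a transcription start site (TSS) of a protein-coding gene on the minus strand at or to its left and one on the plus strand at or to its right. Each start site had to lie within 500 bp. The rule used positions only and no signal. It found 1133 members among the peaks kept by the irreproducible discovery rate (IDR) procedure, which was 15.1% of them (exact 95% binomial interval 14.3 to 15.9%, counting error only). Of the 6388 other IDR peaks, 1909 had their summit within 500 bp upstream of a coding start site on 1 side only and are called single-gene promoter peaks here.

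A divergent promoter is a stretch of DNA between the start sites of 2 neighbouring genes on opposite strands. Compact genomes such as that of the fly hold many of them, and broadly expressed genes often share one. In flies the promoters of such genes carry known elements, among them the DRE recognised by DREF and the element recognised by M1BP. Homeodomain proteins bind short sequences with a TAAT core.

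The 1133 members lay between 1067 distinct pairs of start sites, which belonged to 2099 genes. For 974 members the nearest start sites on either side had no other coding start site between them, and for 159 they had. Annotated noncoding start sites were near few of these summits: 29 members (2.56%) had one within 500 bp, against 155 single-gene promoter peaks (8.12%).

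Several intervals are printed to show the kind of DNA on which the summits lay. They are 3 of the highest members, the highest cytoplasmic ribosomal protein promoter, a promoter with 2 copies of TAATTA, and one with a DRE. Each is the sequence strictly between the start sites on the plus strand of the release 6 genome, the same build as dm6, and no annotated exon overlaps it. The left gene is transcribed to the left and the right gene to the right. Capitals mark the 21 bases centred on the summit of the IDR peak.
Art3 and mRpS10 (chr3R:15229409-15229664): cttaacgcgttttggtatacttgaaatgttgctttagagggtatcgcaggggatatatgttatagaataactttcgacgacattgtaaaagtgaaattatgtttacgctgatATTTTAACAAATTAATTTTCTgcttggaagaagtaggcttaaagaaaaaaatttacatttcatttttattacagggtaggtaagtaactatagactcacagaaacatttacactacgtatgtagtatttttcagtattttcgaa
Tcs5 and CHMP2B (chr3L:5139396-5139618): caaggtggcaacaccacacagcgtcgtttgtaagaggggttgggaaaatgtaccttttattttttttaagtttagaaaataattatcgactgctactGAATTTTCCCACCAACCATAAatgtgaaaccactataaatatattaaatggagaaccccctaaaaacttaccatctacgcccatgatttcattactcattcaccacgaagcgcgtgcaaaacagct
Lon and PIG-F (chr3L:19612200-19612454): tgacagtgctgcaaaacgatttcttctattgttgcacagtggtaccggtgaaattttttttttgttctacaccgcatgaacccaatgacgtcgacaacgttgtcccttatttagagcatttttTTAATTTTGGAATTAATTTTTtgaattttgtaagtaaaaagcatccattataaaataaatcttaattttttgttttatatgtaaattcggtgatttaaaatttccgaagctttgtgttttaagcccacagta
RpL34b and CG8132 (chr3R:9401227-9401494): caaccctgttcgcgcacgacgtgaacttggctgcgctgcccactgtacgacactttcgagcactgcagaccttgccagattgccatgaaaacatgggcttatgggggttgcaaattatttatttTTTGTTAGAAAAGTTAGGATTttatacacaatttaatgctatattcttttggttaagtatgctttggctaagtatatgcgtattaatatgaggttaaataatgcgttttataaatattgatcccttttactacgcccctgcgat
wfs1 and Nup133 (chr3R:22690381-22690606): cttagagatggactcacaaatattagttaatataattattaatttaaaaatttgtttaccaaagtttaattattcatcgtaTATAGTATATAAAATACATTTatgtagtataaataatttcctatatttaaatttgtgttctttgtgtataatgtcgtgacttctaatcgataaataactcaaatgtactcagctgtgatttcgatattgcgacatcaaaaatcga
RpS25 and CG4820 (chr3R:11216288-11216534): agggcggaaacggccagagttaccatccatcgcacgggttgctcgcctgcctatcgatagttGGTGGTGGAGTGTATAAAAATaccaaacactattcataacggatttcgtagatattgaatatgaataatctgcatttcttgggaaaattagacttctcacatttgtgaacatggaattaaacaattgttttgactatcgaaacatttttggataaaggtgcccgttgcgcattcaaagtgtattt

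The intervals were poor in G and C, with a GC content between 23.5% (wfs1 and Nup133) and 39.3% (RpS25 and CG4820). In 4 of the 6 the capitals were much poorer still, at 9.52% for Art3 and mRpS10, for Lon and PIG-F and for wfs1 and Nup133, and at 23.8% for RpL34b and CG8132. The capitals of Tcs5 and CHMP2B and of RpS25 and CG4820 were both at 38.1%. Of the intervals that met the same rule but are not printed, CG13390 and CG17294 had 4.76% in the capitals (interval 30.8%). The capitals of elm and MED27 (38.1%, interval 35.7%) and of Cchl and ND-42 (33.3%, interval 26.8%) were richer than their intervals. Those of GluProRS and AP-1sigma were at 33.3% (interval 34.0%). TAATTA starts at base 80 of the interval of Tcs5 and CHMP2B, counted from its left end, and occurs 2 times between wfs1 and Nup133. TATCGATA, the DRE, starts at base 52 of the interval of RpS25 and CG4820, while the summit was at base 73 and the start site of RpS25 lies just before base 1. The promoter of Art3 and mRpS10, the highest member of all, holds neither TAATTA, TATCGATA nor TATAAA. Its capitals do hold the shorter TAAT core, as do those of Lon and PIG-F.

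The highest members included several pairs of genes with basic cell functions, and most of their summits were 89 to 238 bp from each start site. The peak between Art3, which encodes a predicted arginine methyltransferase, and mRpS10, which encodes a protein of the small mitochondrial ribosomal subunit, ranked 6 among IDR peaks with a signal of 7115 (chr3R:15229301-15229774). Signal is the score of the authors' peak caller and is comparable within a list only. Its rank was 6 in replicate 1 (signal 5635) and 4 in replicate 2 (signal 1498). The summit was 123 bp from the start site of Art3 and 134 bp from that of mRpS10. The next member, between CG5611 and Mtl, ranked 15 (signal 5451, chr3R:27635905-27636602). It ranked 17 in replicate 1 and 8 in replicate 2. Tcs5, which encodes a kinase of the complex that modifies transfer RNA, and CHMP2B, which encodes a subunit of the ESCRT-III membrane remodelling complex, shared the peak of rank 18 (signal 5311, chr3L:5139284-5139723). This peak ranked 19 in replicate 1 and 10 in replicate 2, and its summit was 108 and 116 bp from the start sites.

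The rest of the 10 highest members held ranks 19 to 40 in the IDR list. They lay between Pdrg1 and Pal1 (rank 19), between eIF4EHP, which encodes a cap-binding repressor of translation, and CG18428 (rank 20), between CG11309 and CG7632 (rank 29), and between CG13390 and CG17294 (rank 32). The peak between mRpS23, of the small mitochondrial ribosomal subunit, and CenG1A ranked 35, and was 382 bp from the start site of mRpS23 and 110 bp from that of CenG1A. Lon, which encodes a mitochondrial protease, and PIG-F, which acts in the synthesis of GPI anchors, flanked the peak of rank 38. Chro, which encodes a chromodomain protein of chromosomes and spindle, and Ssl1, a subunit of the general factor TFIIH, flanked that of rank 40. In replicate 1 these 7 peaks ranked between 21 and 43, and in replicate 2 between 12 and 44. At the other end, the peaks between step and CG1416 (rank 7484), CG5946 and RpL10Ab (rank 7494), and Abp1 and Tgi (rank 7502) were the weakest members. In replicates 1 and 2 the peak of step and CG1416 ranked 11729 and 3947, that of CG5946 and RpL10Ab 8524 and 4582, and that of Abp1 and Tgi 7153 and 6326. Their summits were 454, 484 and 452 bp from the farther start site. The pair CG5946 and RpL10Ab also had a stronger member, of rank 2905, so the low rank describes 1 peak and not the pair.

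Summits lay near the middle of the intervals. The spacing between the start sites had a median of 316 bp (quartiles 244 and 430 bp), from 19 bp between MED6 and Naa80 to 878 bp between Spn42Db and Spn42Dc. A summit was a median of 109 bp from the nearer start site (quartiles 76 and 144 bp), 199 bp from the farther one and 39 bp from the midpoint. The midpoint was nearer than either start site for 861 members (76.0%, 73.4 to 78.5%), and 657 (58.0%, 55.1 to 60.9%) lay in the central of 3 equal segments of the interval. Neither side was preferred by much: 595 summits were nearer the plus-strand and 534 nearer the minus-strand start site. At single-gene promoters the median distance to the start site was 170 bp (quartiles 97 and 284 bp). For members the distance is the smaller of 2, which makes it shorter by construction. Leaving out either replicate gave a median of 106 to 109 bp to the nearer start site.

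**Figure D1:**
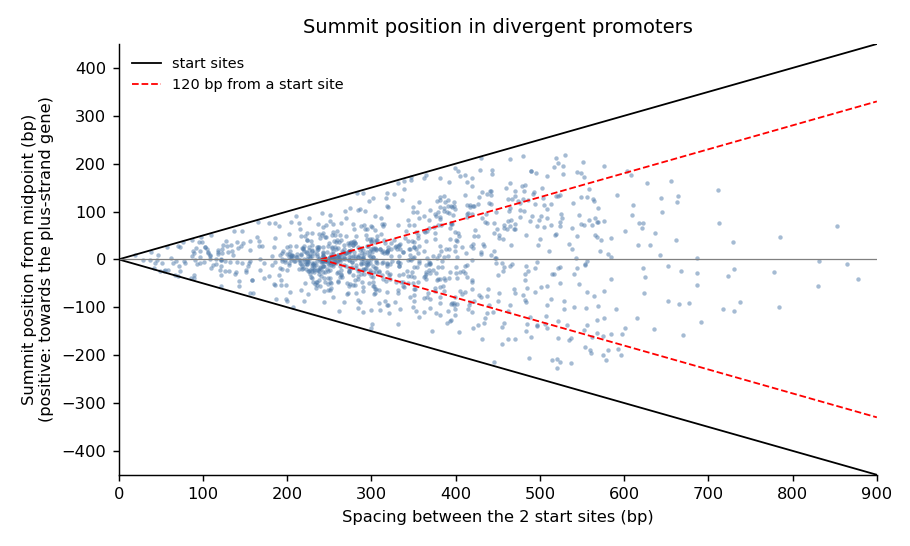
Position of each of the 1133 summits relative to the midpoint between its start sites (vertical axis, bp; positive values lie towards the plus-strand gene) against the spacing of the start sites (horizontal axis, bp). Solid lines are the start sites and dashed lines a distance of 120 bp from them; summits gather at the midpoint at short spacings and spread towards both sides at long ones.

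With wider spacing the summits left the midpoint. Of 371 members with start sites over 200 and up to 300 bp apart, 275 (74.1%) lay in the central segment, and of 340 with more than 400 bp between start sites 157 (46.2%) did. The distance to the nearer start site grew slowly, with medians of 95 bp at 200 to 250 bp spacing, 114 bp at 250 to 300, 127 bp at 300 to 350, 120 bp at 350 to 400, 136.5 bp at 400 to 500 and 160 bp at 500 to 600 bp. Over the same classes the median distance to the farther start site went through 134, 163.5, 198, 254, 312 and 373 bp. The nearer distance can be at most the spacing divided by 2, which limits it in the shortest classes. The rule also caps the farther distance at 500 bp, which limits both distances at spacings of 500 to 600 bp. The plot of summit position against spacing shows a cloud on the midpoint that opens into 2 arms.

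In 66 of the 1067 intervals there were 2 summits. Their start sites were a median of 416 bp apart (284 to 601 bp). The 2 summits were 199 to 263 bp apart, with a median of 202 bp, and were a median of 103 bp from the nearer start site (quartiles 79 and 157 bp). This gap is not specific to these promoters: no IDR summits anywhere were closer than 199 bp, and 279 of the 345 gaps of up to 300 bp between neighbouring IDR summits were between 199 and 210 bp. An interval shorter than that could therefore hold 1 listed summit at most.

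Divergent promoters carried a summit more often than single-gene promoters. Here all 2511 intervals of up to 1000 bp between a minus-strand coding start site and the next plus-strand one were counted, with or without a peak. An IDR summit lay in 1012 of them, which was 40.3% (38.4 to 42.3%). Of 9093 genes without a divergent partner, 1161 had a summit in the 500 bp upstream of the gene, which was 12.8% (12.1 to 13.5%; Fisher's exact test, two-sided, p = 9.73e-189). With the search limited to 200 bp next to 1 start site, the shares were 28.9% and 8.46% (Fisher's exact test, p = 2.30e-137). That alternative was added after the data had been seen. The highest peaks of replicate 1 gave 39.2% and 12.5%, and those of replicate 2 gave 44.4% and 13.4%. Each test treats promoters as independent, and all lists were called against the same control, so these p-values do not measure the spread between embryos. Among promoters without an IDR summit, a summit of the pooled list was present in 483 of 1499 divergent promoters (32.2%) and in 1532 of 7932 single-gene promoters (19.3%). Of the members 153 were on X, 208 on 2L, 213 on 2R, 240 on 3L, 317 on 3R and 2 on chromosome 4, and the share of divergent promoters with a summit was 34.5% on X (29.8 to 39.4%) and 41.5% on the large autosome arms together (39.4 to 43.6%).

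The share with a summit depended on spacing. It was 5.20% for 173 pairs with start sites up to 50 bp apart, 13.6% at 50 to 100 bp, 22.0% at 100 to 150 bp and 31.2% at 150 to 200 bp. Between 200 and 250 bp it reached 60.1% (137 of 228, 53.4 to 66.5%), and it was 59.5%, 60.1% and 55.6% in the next classes up to 400 bp. It was 50.2% at 400 to 500 bp, 99 of 198 at 500 to 600 bp, 31.2% at 600 to 800 bp and 32.5% at 800 to 1000 bp. The intervals of the classes at 150 to 200 bp (23.8 to 39.5%) and at 200 to 250 bp did not overlap. The highest peaks of each replicate had the same step: 32.6% against 60.5% in replicate 1, and 34.0% against 63.6% in replicate 2. The closest pairs were below the level of single-gene promoters. A shorter interval also offers less length in which a summit can fall, and its part in these shares was not tested. Signal also followed spacing: the median IDR rank of members was 5377 at 50 to 100 bp, 1996 at 200 to 250 bp, 1910.5 at 250 to 300 bp and 3803 at 500 to 600 bp. The shortest pair with a member, MED6, encoding a subunit of the Mediator complex, and Naa80, encoding an N-terminal acetyltransferase, had a peak of rank 3579 (signal 280.0), with ranks of 3972 and 2978 in replicates 1 and 2. Just inside the 500 bp limit, 15 members with a start site in the last 20 bp had a median rank of 3881, and 12 peaks in the 20 bp beyond it had one of 4469.5.

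**Figure D2:**
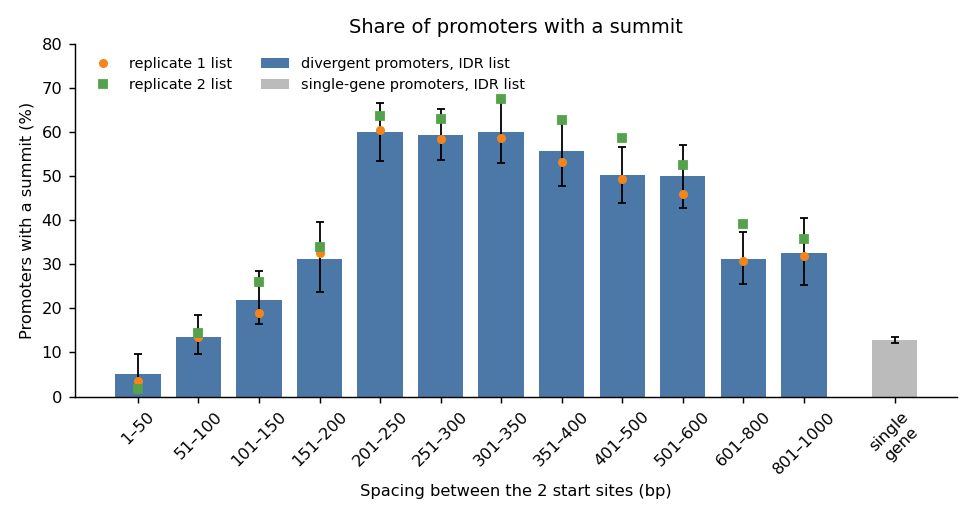
Share of divergent promoters with an IDR summit (blue bars, percent of promoters) by the spacing of the start sites in bp, with exact 95% binomial intervals, and the share of single-gene promoters (grey bar). Points give the shares for equally long lists of the highest peaks of each replicate; in all 3 lists the share was below 35% up to 200 bp and between 53% and 68% from 200 to 400 bp.

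Promoter peaks of both kinds were more frequent towards the top of the IDR list. Members made up 23.0% of the 100 highest peaks, 22.4% of the next 900 and 210 of the next 1000. From there the share was lower in each step of 1000 ranks, with 15.9%, 13.7%, 12.7% and 11.2%, and 10.7% in the last part. Single-gene promoter peaks made up 44 of the 100 highest and 297 of the next 900, and 22.1 to 25.1% in the steps below. In the 22479 pooled peaks of ranks 7522 to 30000, 624 (2.78%) met the same rule. These were set apart by rank in the pooled list and were not compared with the IDR list. The median rank was 2817 for members and 3512 for single-gene promoter peaks. Among the 1000 highest IDR peaks, however, were 225 of the 1133 members (19.9%) and 341 of the 1909 single-gene promoter peaks (17.9%). These shares of each kind did not differ at the threshold (Fisher's exact test, two-sided, p = 0.177). With both start sites required within 250 bp the shares were 24.9% and 15.7% (Fisher's exact test, p = 2.21e-07), and with the peaks of replicate 2 alone 22.2% and 16.7% (Fisher's exact test, p = 1.03e-04). In replicate 1 alone they were 19.1% and 18.0%.

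Members recurred in the replicates, and in their upper ranks nearly all did. Both kinds of peak come from the IDR list, which was made from these same 2 replicates. Their recovery is therefore partly built in and is no independent evidence. With lists of the highest peaks of each replicate, as long as the IDR list, 994 members (87.7%, 85.7 to 89.6%) had a summit within 150 bp in both. Of the single-gene promoter peaks 1502 (78.7%, 76.8 to 80.5%) did (Fisher's exact test, two-sided, p = 1.75e-10). In replicate 1 the shares were 95.1% and 94.4%, and in replicate 2 they were 92.2% and 83.3%. Above rank 4000 the shares found in both were 68.4% and 54.3% (Fisher's exact test, p = 1.97e-06), while at ranks up to 2000 they were 434 of 435 and 577 of 577. Searching all 30000 deposited peaks of each replicate gave 96.9% and 96.1% (Fisher's exact test, p = 0.269). Summits of members moved by a median of 2 bp in replicate 1 and 18 bp in replicate 2 relative to the IDR list. Across the 1098 members found in both full lists, the replicate ranks had a Spearman correlation of 0.890, which describes peaks of 2 lists that share a control and is no test.

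**Figure D3:**
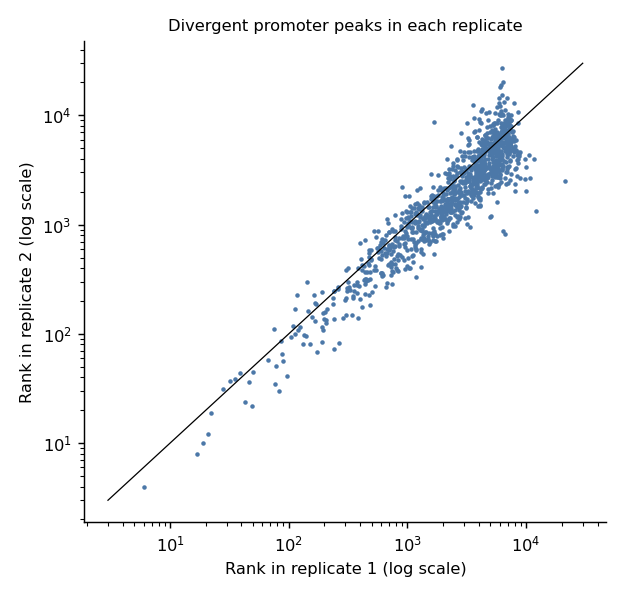
Rank of each of the 1098 divergent promoter peaks found in both full lists, in replicate 1 (horizontal, log scale) and replicate 2 (vertical, log scale); rank 1 is the highest signal and the line marks equal ranks. The points follow the line and scatter most at the lower ranks.

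Several gene classes of general cell functions were at these peaks in a larger share than all genes with a divergent partner. Of those 4875 protein-coding genes 43.0% were at a divergent promoter peak, and no class was tested against this background. Of 55 cytoplasmic ribosomal protein genes with a divergent partner 36 were members (65.5%). RpL34b ranked 227 (signal 1886, 238 in replicate 1 and 186 in replicate 2), RpS20 ranked 439 and RpS27 ranked 881. Of 59 mitochondrial ribosomal protein genes with a partner 36 were members (61.0%), led by mRpS10, mRpS23 and mRpL23 (rank 64). Aminoacyl-tRNA synthetases, which load transfer RNAs with amino acids, had 18 of 24, led by SerRS (rank 411), IleRS (525) and GluProRS (678). The chaperonin CCT, which folds actin and tubulin, had 5 of 7, with CCT3 at rank 1410. Vacuolar ATPase genes had 9 of 14 (64.3%) and spliceosome genes 16 of 28 (57.1%), with U2af50 at rank 353. RNA polymerase, general factor and Mediator genes had 30 of 52 (57.7%), led by Polr3E (rank 258), Taf5 (315) and MED27 (349). Nearer the background were the respiratory chain with 24 of 48, led by ND-MWFE (rank 536), nucleoporins with 9 of 19 (47.4%), led by Nup133 (rank 555), replication and cell cycle genes with 16 of 34 (47.1%), led by PolD2 (rank 105), and the proteasome with 11 of 26 (42.3%). Translation initiation factors had 6 of 21 (28.6%). Classes were filled by gene name. The replication and cell cycle class thus includes Cdc5, Cdc50, Cdk9 and Cdk12, whose part in those processes was not checked. Likewise the cytoplasmic ribosomal protein class counts RpLP0-like and RpL24-like, and the spliceosome class counts LSm1. Whether these 3 belong in their classes was not checked.

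Single-gene promoters of these classes differed in their own shares. Genes of a class without a divergent partner had an upstream summit in 26 of 37 cases for cytoplasmic ribosomal proteins (70.3%), 4 of 16 for mitochondrial ribosomal proteins, 5 of 11 for aminoacyl-tRNA synthetases (45.5%) and 7 of 44 for the respiratory chain (15.9%), against 14.9% of all such genes. The 14.9% counts genes at a single-gene promoter peak, which can lie upstream of any coding start site. The 12.8% given earlier for genes without a partner used only the 500 bp upstream of the gene. The share with a partner leaves out genes that were at a single-gene promoter peak only, so the shares with and without a partner count different peaks. Of the cytoplasmic ribosomal protein genes 36 were at a single-gene promoter peak only, and 26 of these had no partner. Their lower share with a partner is thus not a lower share with any promoter peak. The shares with and without a partner were not tested against each other within a class. Only 1 member had both genes in the same class: RPA1, a subunit of the protein that binds single-stranded DNA in replication, and Mcm2, a subunit of the replicative helicase (rank 1095, signal 722.9, ranks 1235 and 705 in replicates 1 and 2). Since both genes of a pair share the peak, the gene to which a summit belongs cannot be told apart.

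**Figure D4:**
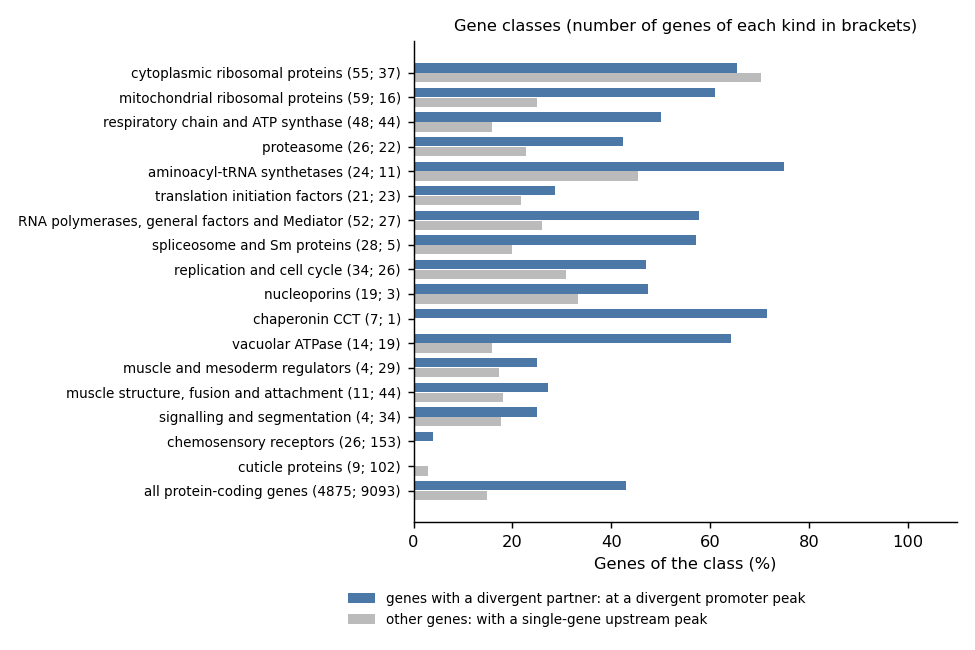
Share of genes in each class that were at a divergent promoter peak, of genes with a divergent partner (blue), and share with a single-gene upstream peak, of the other genes (grey), in percent. The numbers of genes are given in brackets in that order. Across all coding genes the shares were 43.0% and 14.9%, and for cytoplasmic ribosomal proteins 65.5% and 70.3%. Blue bars leave out genes with a partner that were at a single-gene promoter peak only. The blue and grey bars of a class therefore count different peaks.

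Fewer of the developmental and tissue-specific genes had a divergent partner or were at these peaks. Of all 13968 protein-coding genes 4875 (34.9%) had a partner and 2099 were at a divergent promoter peak. Of 33 muscle and mesoderm regulators 4 had a partner and 1 was a member: sd, which encodes a TEAD family transcription factor, shared a peak of rank 7382 with PGRP-LE (signal 137.8). That peak ranked 8504 in replicate 1 and 10724 in replicate 2, and its summit was 83 bp from PGRP-LE and 407 bp from sd. Of 55 genes of muscle structure, fusion and attachment 11 had a partner and 3 were members. Hem, which encodes a subunit of the SCAR complex that drives actin assembly, shared a peak with IleRS (rank 525, signal 1172, ranks 594 and 358 in the replicates). The summit was 308 bp from Hem and 162 bp from IleRS. mbc, which encodes an activator of Rac needed for myoblast fusion, shared one with Nup98-96 (rank 920, signal 824.1, ranks 1083 and 515). Vrp1, which encodes an actin regulator of the same process, shared one with mei-S332 (rank 2134, signal 446.4, ranks 2320 and 1588). Each of these 4 has a partner gene outside the muscle classes. Of 38 signalling and segmentation genes 4 had a partner and spi, which encodes a ligand of the EGF receptor, was a member (rank 2541). Neuronal and glial markers gave 0 members with 1 gene that had a partner, and cuticle proteins 0 with 9. Of 26 chemosensory receptors with a partner 1 was a member, Gr63a, a subunit of the carbon dioxide receptor, next to Lamtor4 (rank 7046).

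Summit DNA of members was poor in G and C. In 51 bp windows the mean GC content was 29.7% ± 11.1 (SD over 1133 members) at the summits of members and 33.4% ± 11.7 at those of 1909 single-gene promoter peaks, with 42.1% over the genome. To compare promoters with and without a peak, windows were centred on the midpoint between the start sites and spacings were limited to over 200 and up to 400 bp. The midpoints had 25.4% ± 8.3 GC in 526 promoters with a summit and 30.5% ± 11.3 in 365 without (SD over promoters). The median spacing was 288 bp with a summit and 287 bp without. At 100 bp from the midpoint on the left the values were 39.4% and 38.6%. Farther out, promoters with a summit were richer in G and C at most distances, with 50.3% and 47.9% at 325 bp on the left. At 200 bp on the left the order was the other way, with 38.8% and 39.6%. The GC content of the 50 bp on either side of the midpoint was related to the share with a summit. A summit was present in 74.0% of 227 promoters with 20 to 25% GC, 63.4% of 238 with 25 to 30%, 52.4% of 143 with 30 to 35%, 29.7% of 64 with 35 to 40% and 23.2% of 82 with 40% or more. Below 20% GC it was 68.6% of 137.

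**Figure D5:**
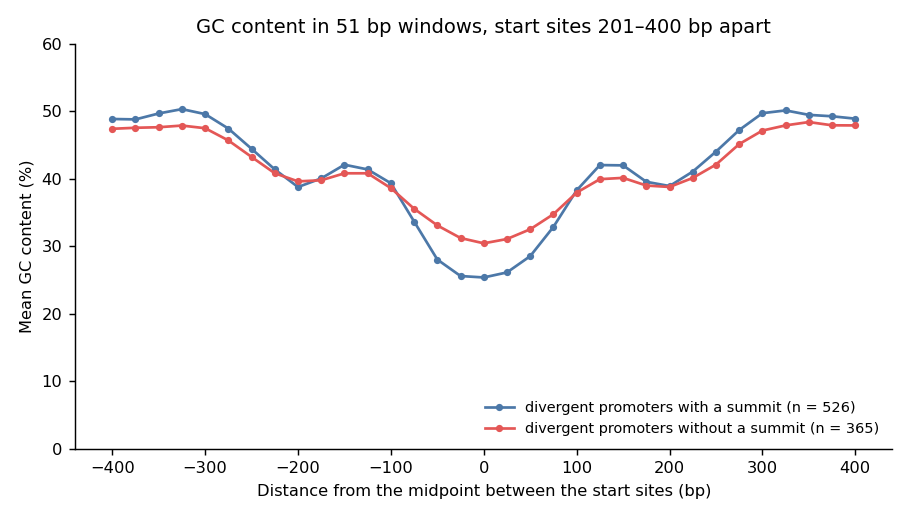
Mean GC content (percent) in 51 bp windows around the midpoint between start sites over 200 and up to 400 bp apart, for 526 divergent promoters with an IDR summit and 365 without. The curves are farthest apart at the midpoint, at 25.4% with and 30.5% without a summit. Beyond 100 bp they lie closer together, and the curve with a summit is the higher one at most distances.

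Homeodomain cores were more frequent at the summits of members than at those of single-gene promoter peaks. The presence of 16 motifs on either strand was counted in the 50 bp on either side of the summit, and 5 of the 16 (31.2%) differed (Fisher's exact test, two-sided, Benjamini-Hochberg adjustment over the 16 motifs, threshold 0.05). TAAT was in 85.3% of members and 77.4% of single-gene promoter peaks (adjusted exact p = 1.11e-06), and TAATTA, which holds it and is palindromic, in 14.3% and 10.6% (adjusted exact p = 0.0171). TATAAA was in 29.7% and 22.9% (adjusted exact p = 2.86e-04). CACACA (4.32% and 6.55%, adjusted exact p = 0.0484) and GAGAG (6.00% and 8.38%, adjusted exact p = 0.0497) were less frequent in members. Both calls were lost in 6 of 8 alternatives. Without replicate 1 the adjusted exact p was 0.205 for each, and with 1 start site per gene it was 0.285 for CACACA and 1 for GAGAG. TATCGATA, the DRE, was in 3.80% of members and 3.30% of single-gene promoter peaks (adjusted exact p = 0.507), and GGTCACAC, the M1BP core, in 2.12% and 1.68% (adjusted exact p = 0.497). In the wider window of 100 bp on either side both differed, TATCGATA with 10.2% and 6.81% (adjusted exact p = 0.00189) and GGTCACAC with 6.09% and 4.30% (adjusted exact p = 0.0493), as did CGATA, a part of the DRE, with 48.0% and 35.8% (adjusted exact p = 7.34e-10). In the 50 bp on either side of a point 120 bp upstream of all 13968 coding genes, TAAT was found in 71.0%, TAATTA in 1399 of them, TATAAA in 19.7%, CACACA in 6.72%, GAGAG in 13.2%, TATCGATA in 1.51% and GGTCACAC in 0.974%. Windows with less G and C hold A and T rich motifs more often by composition, and the GC content given above differed in the same direction. Its part in these differences was not tested.

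The midpoints of divergent promoters with and without a summit differed in 9 of the 16 motifs (56.2%). TAATTA was in 16.8% of 1012 promoters with a summit and 7.67% of 1499 without (adjusted exact p = 1.55e-11), TATAAA in 31.1% and 18.3% (adjusted exact p = 1.87e-12), TAAT in 87.2% and 69.7% (adjusted exact p = 3.64e-24) and TTATTTTA in 7.41% and 4.47% (adjusted exact p = 0.00402). CGATA was in 16.8% and 28.7%, CAGCTG in 2.77% and 9.34%, TATCGATA in 2.87% and 6.14%, GGTCACAC in 1.09% and 3.87%, and CANCNCTA in 4.55% and 7.47%, all less frequent with a summit (adjusted exact p from 1.55e-11 to 0.00579). In the windows upstream of all coding genes CGATA was found in 16.6%, CAGCTG in 615 of 13968, CANCNCTA in 3.08% and TTATTTTA in 4.41%. Short intervals, where the midpoint is next to the start sites, make up more of the promoters without a summit. With spacings limited to over 200 and up to 400 bp only TAATTA (21.7% and 9.32%, adjusted exact p = 1.03e-05), TAAT (93.0% and 82.7%) and TATAAA (36.7% and 22.5%) differed (adjusted exact p = 2.19e-05 for TAAT and 3.42e-05 for TATAAA). This limit was added after the data had been seen.

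At these midpoints TAATTA was set beside every hexamer that holds A and T alone. Its ratio of promoters with to those without a summit was 2.33, the highest of the 36 such hexamers. In percentage points its difference of 12.4 was number 16 among them, and the largest was 16.7 for ATTAAA (48.5% and 31.8%). The other 35 had ratios from 1.09 to 2.00 with a median of 1.40, and the next, ATTAAT, overlaps it. Within classes of GC content, TAATTA was in 35.1% of 94 promoters with a summit and 14.0% of 43 without below 20% GC, and in 25.6% of 168 and 11.9% of 59 at 20 to 25%. At 25 to 30% the shares were 17.2% of 151 and 14.9% of 87, and at 30 to 35% they were 14.7% of 75 and 2.94% of 68. Above that the counts were small and the order was the other way round, with 1 of 19 and 5 of 45 at 35 to 40%, and 0 of 19 and 1 of 63 at 40% or more. TATAAA was in 58.5% and 60.5% below 20% GC, 41.7% and 32.2% at 20 to 25%, 35.1% and 25.3% at 25 to 30%, and 14.7% and 13.2% at 30 to 35%. These shares are descriptions of motif presence and not of binding sites.

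Most of the other promoter elements lay closer to a start site than TAATTA and TATAAA did. Over the whole interval at spacings over 200 and up to 400 bp, TATCGATA was a median of 33 bp from the nearer start site in promoters with a summit, GGTCACAC 24.5 bp, CAGCTG 28.5 bp and CANCNCTA, the core of another fly promoter element, 27.5 bp. TAATTA was 103.5 bp and TATAAA 100 bp from it. Promoters without a summit gave medians of 38.5, 28, 43.5 and 39.5 bp for the first 4 motifs in the same order, 91.5 bp for TAATTA and 81.5 bp for TATAAA. Counted over the whole interval, CANCNCTA was in 28.9% of promoters with a summit and 11.5% of those without (adjusted exact p = 3.83e-09), and TATCGATA in 21.7% and 14.0% (adjusted exact p = 0.0151), both more frequent with a summit. GGTCACAC was in 8.75% and 8.49%. The whole-interval count was added after the data had been seen, and CANCNCTA was singled out after its values were seen. The highest members with a DRE within 50 bp of the summit were those of RpS25 and CG4820 (rank 1229), RpL19 and CG3776 (rank 1508), RpL28 and eIF1 (rank 1793) and dsd and Tusp (rank 1804), in which the summit was 73, 41, 100 and 91 bp from the nearer start site. The highest members with GGTCACAC near the summit were those of Ripalpha and RpL7 (rank 938, ranks 983 and 790 in the replicates), CG7130 and RpLP0 (rank 1484) and CG2321 and CG2006 (rank 3199), where the summit was 59, 43 and 34 bp from the nearer start site. These 3 were also rich in G and C at the summit, with 60.8%, 47.1% and 56.9%.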

How the data were processed

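ChIP-seq of GFP-tagged lms was done on 2 biological replicates of whole embryos. Sonicated chromatin was used and coordinates are on dm6, per the labels. The peak caller, aligner and sequencing depth are not given in the sources used here, and precision from reads could not be stated. Notes deposited beside the files say that 1 control alignment served for calling each replicate and the pool of both. The authors' signal is a score of unstated scale that served for ranking inside a list. Their −log10 q-value, also deposited, went unused. The deposited IDR list holds 7521 peaks. The other lists end at 30000.

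Members, gene classes and motifs were chosen with earlier results of these data known. Start sites came from Ensembl release 115 (FlyBase 6.54), and bases from the RefSeq copy of the release 6 genome. Summits were compared with starts of all coding transcripts. Divergent promoters are intervals of up to 1000 bp between adjacent opposite start sites. Single-gene promoters are the 500 bp upstream of a gene with no such partner. Motifs were searched on both strands in 101 bp. Replicates were compared by summits within 150 bp in lists of equal length. Fisher's exact tests treat peaks and promoters as independent and do not measure the spread between embryos. Positions were checked on simulated data. Tools were scipy 1.17.1, pandas 2.3.3, numpy 2.4.6 and matplotlib 3.10.9 under Python 3.11.15.

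Named are the 10 highest and 3 lowest members, those with the shortest and longest spacing, up to 3 member genes of highest signal per class, members with both genes in 1 class, 4 members with TATCGATA, 3 with GGTCACAC, and those with a muscle or mesoderm gene. Sequences were taken from the highest named members with spacings of 60 to 300 bp. Those with an annotated exon in the interval were then left out, and 6 of the remaining intervals are shown. Alternatives covered the start sites, distance, peak threshold, windows and each replicate alone.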

Additional observations from a re-analysis of the deposited data

How the results depend on the processing

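The main results were recomputed in 52 other settings, and in 36 the direction and the call were as reported or the value stayed near it. The share of members among IDR peaks was 11.8% with 1 start site per gene, 9.61% with a limit of 250 bp, and 18.1% with 1000 bp, which follow from the rule, and 18.5% in the higher-signal part of the list, where members were denser. With either replicate left out it was 14.9 to 16.6%. The share of each kind that was among the 1000 highest was 2.00 percentage points larger for members than for single-gene promoter peaks. This difference was 9.20 with a limit of 250 bp, and 1.05 to 5.53 with either replicate left out. The difference in recovery by both replicates was 9.05 points, 0.840 with all deposited peaks, 1.67 at ranks over 2000 and up to 4000, and reversed to -0.230 at ranks up to 2000, where nearly every peak was found. Motifs that differed between members and single-gene promoter peaks numbered 5, but 3 with 1 start site per gene, 2 in the higher-signal part, 3 in 25 bp on either side of the summit, 10 in 100 bp on either side, and 3 to 5 with either replicate left out. The 10 included TATCGATA, GGTCACAC and CGATA, and CACACA and GAGAG were lost in 6 of 8 alternatives. TAATTA missed the threshold in the narrower window (adjusted exact p = 0.307) and TATAAA in the higher-signal part (adjusted exact p = 0.0544), and the cause was not tested. Between midpoints with and without a summit 9 motifs differed, and 3 at spacings over 200 and up to 400 bp. Over the whole interval at those spacings the difference reversed to 7.70 points for TATCGATA, 9.77 for CGATA, 0.252 for GGTCACAC, 3.33 for CAGCTG and 17.4 for CANCNCTA, which by construction includes the ends next to the start sites. That of CANCNCTA also reversed to 0.536 in 100 bp on either side of the midpoint and to 1.23 at the limited spacings. Comparisons by spacing, rank, base composition and whole interval were added with the data in view, as was the search of 200 bp next to 1 start site. The rest had been planned, but with earlier results of these data known when members, gene classes and motifs were chosen. No paired analysis was possible because both replicates belong to 1 group. Lists that end at a fixed number of peaks limit what can be said of promoters without a summit.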
